A study of Mus musculus with 8 samples.

Results

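The collagen genes were examined in 8 RNA sequencing libraries of primary mouse liver and bone marrow cells exposed to auranofin, a gold compound used against rheumatoid arthritis. A gene was taken as a collagen if its symbol was Col, a type number, the letter a and a chain number, such as Col1a1. The rule itself uses no measured value, although the collagens were chosen with earlier results of these data known. In all, 43 of the 19382 genes listed over both expression tables were collagens, with 43 among the 18645 genes of the table for hepatic stellate cells (HSCs) and 36 among the 17408 genes of the table for bone marrow-derived macrophages (BMDMs).

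The HSCs were isolated from the liver of C57BL/6 mice by a density gradient and were labelled as activated. They formed 2 control libraries, labelled untreated, and 2 libraries of cells given 0.03 µM auranofin for 12 h. The BMDMs were grown from C57BL/6 bone marrow of male mice aged 8 weeks. All 4 of their libraries came from cells given lipopolysaccharide (LPS) at 100 ng/mL and ATP at 1 mM. Of these, 2 were controls without auranofin, and 2 had auranofin at 0.1 µM for 1 h. In other BMDM experiments of the study with ATP, LPS was given for 4 h before ATP and auranofin. The sample titles name LPS and ATP without an order. Doses are those of the sample labels and times those of the figure legends, and a legend gives a higher auranofin dose for BMDMs than the labels do, so this dose is uncertain. Cell type, stimulus, dose and time all differ between the tables and cannot be told apart. Nothing states that replicates came from separate animals or cultures, so the p-values measure only the spread between these libraries, which may be technical.

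Collagens are built of 3 chains wound into a triple helix, and each chain has its own gene. Fibrillar collagens, mainly of types I, III and V, form the banded fibres of scar tissue, whereas type IV collagen forms the mesh of basement membranes. Other classes decorate fibrils (the FACIT collagens), form beaded filaments (type VI) or short-chain networks (type VIII), anchor epithelia (type VII) or carry chains of glycosaminoglycan sugars (the multiplexins, types XV and XVIII). In the injured liver, stellate cells take on a myofibroblast state and are the main source of fibrillar collagen.

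The values are FPKM, the fragments of a gene scaled to the length of its transcript and to the size of the library, so that levels can be compared between genes per length. The tables hold no counts. Estimated from the steps that single fragments leave in low values, the depth was between 30000000 and 39800000 fragments in HSC libraries and between 27700000 and 35000000 fragments in BMDM libraries. Auranofin replicate 1 of BMDMs stood apart. Its values and those of the other auranofin replicate were 2-fold or more apart in 383 of the 4245 genes with 10 FPKM or more, whereas 14 genes were that far apart in the controls. In HSCs, the same counts were 19 and 13 of 6430 genes. Markers of other cells were present in the HSC libraries, where the summed level of 16 macrophage genes was between 8861 and 9174 FPKM, against between 9802 and 10820 FPKM in BMDMs. The stellate cell gene Acta2, which encodes smooth muscle α-actin, was between 737 and 965 FPKM in HSC libraries. The 10 hepatocyte markers listed summed to at most 2.64 FPKM there. Since these are bulk samples, fewer cells of a type and less RNA per cell cannot be told apart for any gene described here.

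Activated HSCs carried collagen mRNA at very high levels. Col1a1, the α1 chain of type I collagen (chr11:94936224-94953042, mm10), was at 1001 and 1075 FPKM in control HSCs, and it ranked between 24 and 42 among all genes of a library. The mean over the 4 libraries was at least 100 FPKM for 6 collagens, namely Col1a1, Col1a2, Col3a1, Col4a1, Col5a2 and Col4a2. Between 10 and 100 FPKM were 10 more (Col6a1, Col5a1, Col6a2, Col12a1, Col4a5, Col8a1, Col14a1, Col6a3, Col11a1 and Col16a1). From 1 to 10 FPKM were 8, namely Col4a6, Col18a1, Col15a1, Col5a3, Col7a1, Col24a1, Col27a1 and Col8a2. The remaining 19 were under 1 FPKM, 12 of them under 0.1 FPKM, and these include the cartilage collagen Col2a1 and the skin collagen Col17a1.

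All collagens together summed to 3492 and 3575 FPKM in control HSCs, which was 0.808% and 0.831% of the FPKM of all genes. Fibrillar collagens made up 71.3% and 73.8% of this sum and basement membrane collagens 19.7% and 16.9%. Type VI beaded filament collagens held 4.75% and 5.19%, and FACIT collagens 2.72% and 2.65%. The chains of a collagen type were not equal in level. The Col1a1 level was 1.58 and 1.59 times that of Col1a2 in the control libraries. These chains are joined at 2 to 1 in the usual type I molecule, which is background and not measured here.

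BMDMs under LPS and ATP carried few collagen transcripts. The 36 collagens listed summed to 21.0 and 21.1 FPKM in the control libraries, 0.00447% and 0.00453% of all FPKM. No collagen reached 10 FPKM, and 4 had a mean of at least 1 FPKM, namely Col18a1, Col1a2, Col1a1 and Col27a1. The order of the genes also differed from that of HSCs. Col18a1, a multiplexin of basement membranes, led in BMDMs with 6.96 and 7.76 FPKM in the controls, close to its 8.01 and 8.62 FPKM in control HSCs. Col27a1, a minor fibrillar collagen, was likewise at 2.25 and 2.43 FPKM in control BMDMs and at 1.94 and 1.90 FPKM in control HSCs. Since the tables were normalized separately, these levels are set side by side without a test.

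**Figure D1:**
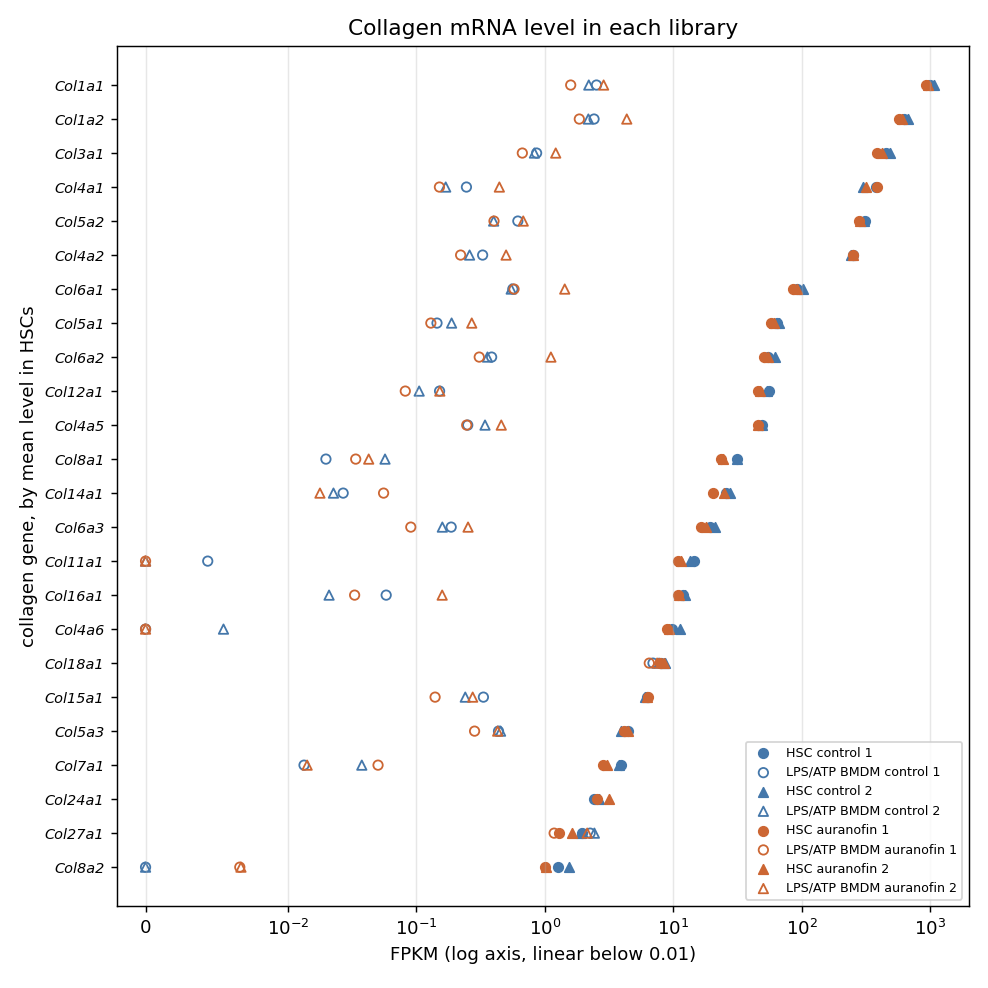
FPKM of the 24 collagens that reached a mean of 1 FPKM in HSCs, on a log axis that is linear under 0.01 FPKM, with 1 point per library (filled for HSCs, open for BMDMs under LPS and ATP, blue for control, orange for auranofin). Col1a1 in HSCs sits between 927 and 1075 FPKM, and most open points lie far to the left of the filled ones, whereas those of Col18a1 and Col27a1 lie among or beside them.

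**Figure D2:**
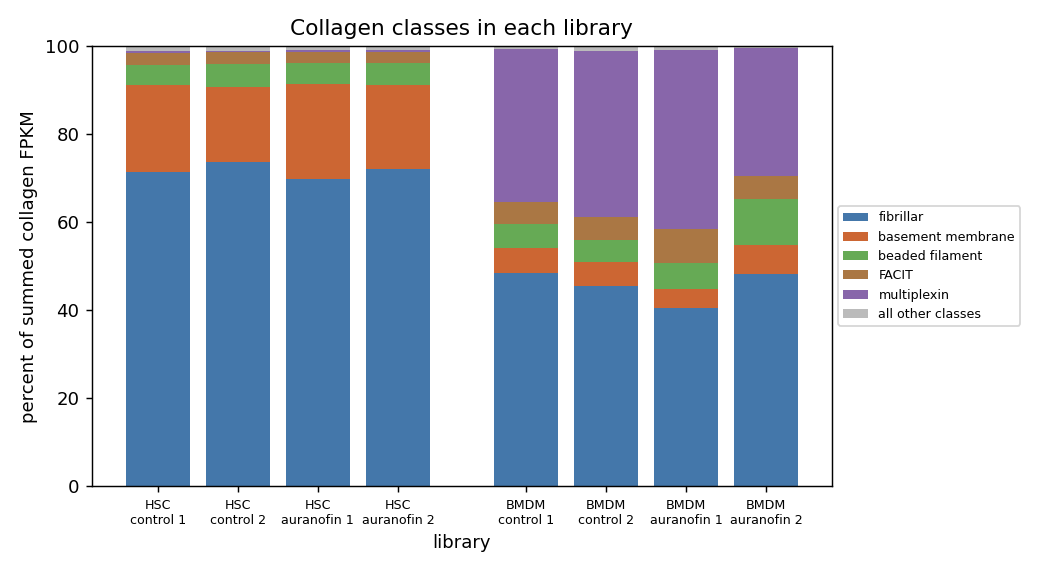
Share of the summed collagen FPKM of each library, in percent, held by each collagen class. In the 4 HSC libraries the fibrillar class takes between 69.7% and 73.8%. In the 4 BMDM libraries the fibrillar class takes between 40.5% and 48.4%, and the multiplexin class between 29.2% and 40.7%.

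The first comparison asked how auranofin at 0.03 µM affected collagen mRNA in activated HSCs. Most collagens were slightly lower with auranofin, and the differences were small. Of the 24 collagens with a mean of at least 1 FPKM, 1 (Col8a1) passed a limma adjusted p under 0.05 (Benjamini-Hochberg over all 12149 genes tested), and it was lower. Among all genes tested, 1.09% were lower by this rule and 2.33% passed it in either direction. None of the 24 was past 1.5-fold with an unadjusted p under 0.05, against 0.576% of all genes. At an unadjusted p under 0.05 in limma alone, 16 of the 24 were lower and 0 were higher, against 9.22% and 8.57% of all genes.

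The libraries themselves showed the same direction. Both auranofin libraries were below both control libraries in 16 of the 24 collagens, a pattern found in 23.9% of all genes. Both were above the controls in 1 collagen, Col15a1, against 26.2% of all genes, and the groups overlapped in 7, against 49.9%. The median log2 fold change of the 24 was -0.14, beside 0.005 over all genes tested. Set against the mean of the controls on the log2(FPKM + 1) scale, the median collagen was at -0.18 in auranofin replicate 1 and -0.11 in auranofin replicate 2, and at -0.03 and 0.03 in the control libraries. Auranofin replicate 1 was the lowest library for 18 of the 24 collagens, against 27.2% of all genes. Without it, far fewer collagens were lower at an unadjusted p under 0.05, as also without control replicate 2. Each of these fits leaves 1 library in a group, and the share of all genes in it is not given here. The median log2 fold change of the collagens in these fits was -0.11 and -0.10, beside 0.005 and -0.005 over all genes. The summed collagen level was 3218 and 3289 FPKM with auranofin, or 0.732% and 0.758% of all FPKM, below both controls.

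**Figure D3:**
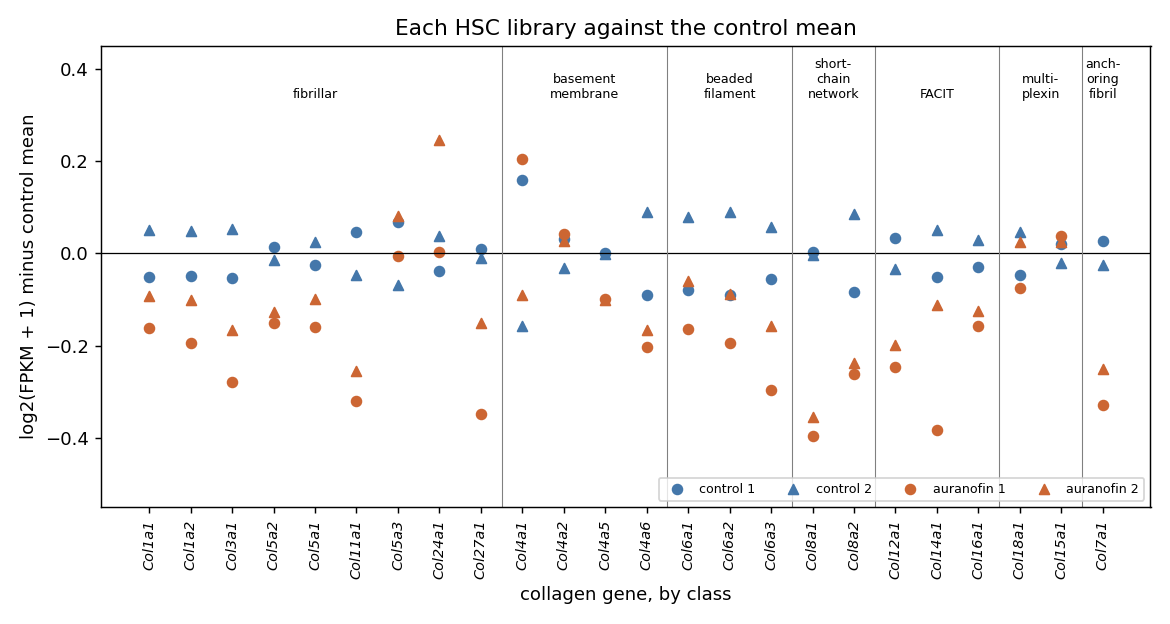
Difference of each HSC library from the mean of the control libraries, in log2(FPKM + 1), for the 24 collagens tested, ordered by class (blue for control, orange for auranofin, circles for replicate 1, triangles for replicate 2). The orange points lie below both blue points in 16 of the 24 genes, and for Col4a1 the circles of both groups lie above the triangles of both groups.

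Fibrillar collagens, the scar-forming class, had a median log2 fold change of -0.14 over the 9 members tested. Both auranofin libraries were below the controls in 7, against 23.9% of all genes. Col1a1 was at 1001 and 1075 FPKM in control HSCs and at 927 and 973 FPKM with auranofin. The auranofin libraries were lower by less than the threshold required, at a log2 fold change of -0.13 (SE 0.05, limma adjusted p = 0.253), or 1038 ± 52.2 against 950 ± 32.4 FPKM (SD, n = 2 each). Col1a2, the α2 chain of type I collagen, was at 633 and 678 FPKM in the controls and at 572 and 611 FPKM with auranofin, a log2 fold change of -0.15 (SE 0.05, limma adjusted p = 0.212). The groups did not overlap for either chain, although the gap between the nearest libraries was smaller than the gap between the controls.

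Col3a1, the only chain of type III collagen, which lies in the same fibrils as type I, was at 455 and 490 FPKM in control HSCs. With auranofin it was at 389 and 421 FPKM, a log2 fold change of -0.22 (SE 0.05, limma adjusted p = 0.116). The type V collagens start the assembly of type I fibrils. Of these, Col5a2 was at 312 and 306 FPKM against 278 and 283 FPKM (log2 fold change -0.14, SE 0.03, limma adjusted p = 0.100). Col5a1 was at 64.0 and 66.4 FPKM in the controls and at 58.3 and 60.8 FPKM with auranofin, a log2 fold change of -0.13 (SE 0.04). For both genes the auranofin libraries lay below the controls, without passing the adjusted threshold.

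Col11a1, a fibrillar chain best known from cartilage, was at 14.4 and 13.5 FPKM in the controls and at 11.0 and 11.5 FPKM with auranofin. Its log2 fold change of -0.29 was the most negative in the class (SE 0.05, limma adjusted p = 0.060). With a minimum mean of 5 FPKM or after centring on the median of all genes, Col11a1 came just under the adjusted threshold. Col27a1 was at 1.94 and 1.90 FPKM against 1.29 and 1.63 FPKM, a log2 fold change of -0.25 (SE 0.09). The groups overlapped for the other two fibrillar members tested, Col5a3 (log2 fold change 0.04, SE 0.07) and Col24a1 (0.12, SE 0.10).

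Basement membrane collagens did not share one direction, and their median log2 fold change was -0.03 over 4 members. Col4a1, the α1 chain of the main type IV collagen, was at 378 and 303 FPKM in control HSCs and at 390 and 318 FPKM with auranofin. Replicate 1 was above replicate 2 in both groups by far more than the groups differed, and the log2 fold change was 0.06 (SE 0.13, limma adjusted p = 0.865). Its sign turned to -0.09 without auranofin replicate 1 and to -0.10 without control replicate 2. Col4a2, the α2 chain, was at 252 and 241 FPKM against 254 and 251 FPKM, a log2 fold change of 0.03 (SE 0.04, limma adjusted p = 0.659). This pair of genes overlapped between the groups.

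Col4a5 and Col4a6 encode the α5 and α6 chains of type IV collagen and sit next to each other on chromosome X. Col4a5 was at 49.1 and 49.0 FPKM in the controls and at 45.8 and 45.7 FPKM with auranofin, a log2 fold change of -0.10 (SE 0.03, limma adjusted p = 0.211). Col4a6 was at 9.80 and 11.2 FPKM against 8.98 and 9.25 FPKM, a log2 fold change of -0.18 (SE 0.07). Both were lower in each auranofin library than in each control. The kidney-type chains Col4a3 and Col4a4 were at most at 0.113 FPKM in all HSC libraries. Summed, the basement membrane collagens were at 689 and 605 FPKM in the controls and at 699 and 624 FPKM with auranofin. They took 21.7% and 19.0% of the collagen FPKM with auranofin, against 19.7% and 16.9% in the controls, and the groups overlapped.

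The only collagen that fell past the adjusted threshold was Col8a1 (chr16:57624256-57754737, mm10), a chain of the short-chain network collagen found around vessels and in wound repair. Its level was 31.6 and 31.5 FPKM in control HSCs and 23.7 and 24.5 FPKM with auranofin, or about 5074, 5327, 3639 and 4976 fragments at the estimated depths. The log2 fold change was -0.38 (SE 0.04, limma adjusted p = 0.0117), and the mean FPKM fell by 23.6%. Both auranofin libraries were well below controls that differed by little. With no minimum on the level, which tests more genes, its adjusted p was 0.0523. Its partner chain Col8a2 was much lower, at 1.26 and 1.54 FPKM in the controls and at 0.996 and 1.03 FPKM with auranofin (log2 fold change -0.25, SE 0.09).

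The FACIT collagens, which bind to the surface of fibrils, were lower in each auranofin library for all 3 members tested, against 23.9% of all genes. Their median log2 fold change was -0.22. Col12a1, which links fibrils under load, was at 56.2 and 53.6 FPKM in the controls and at 46.2 and 47.7 FPKM with auranofin (log2 fold change -0.22, SE 0.04, limma adjusted p = 0.060). Col14a1, a regulator of fibril growth, was at 26.0 and 28.0 FPKM against 20.4 and 24.9 FPKM (-0.25, SE 0.09). Col16a1 was at 11.9 and 12.5 FPKM against 10.8 and 11.1 FPKM (-0.14, SE 0.05). Like Col11a1, Col12a1 passed the adjusted threshold with a minimum of 5 FPKM or with centring, and otherwise no FACIT collagen did so in the fit of all libraries.

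Type VI collagen, the beaded filament around cells, was nearer to the spread of its replicates. Col6a1 was at 91.5 and 102 FPKM in control HSCs and at 86.2 and 92.7 FPKM with auranofin. Col6a2 was at 54.5 and 62.0 FPKM against 50.7 and 54.6 FPKM. For both of these the groups overlapped, with log2 fold changes of -0.11 (SE 0.06) and -0.14 (SE 0.07). Col6a3 was at 19.5 and 21.2 FPKM in the controls and at 16.4 and 18.1 FPKM with auranofin, without overlap (-0.23, SE 0.06, limma adjusted p = 0.160).

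Col7a1, the anchoring fibril collagen of skin and mucosa, was at 3.93 and 3.76 FPKM in the controls and at 2.86 and 3.07 FPKM with auranofin (log2 fold change -0.29, SE 0.06, limma adjusted p = 0.090). The multiplexins stood nearest to no difference. Col15a1 was at 6.26 and 6.05 FPKM against 6.35 and 6.28 FPKM (0.03, SE 0.05), the single one of the 24 tested collagens with both auranofin libraries above both controls. Col18a1, the source of the fragment endostatin, was at 8.01 and 8.62 FPKM against 7.84 and 8.47 FPKM (-0.03, SE 0.06), with overlapping groups.

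Among the 19 collagens under the minimum of 1 FPKM, both auranofin libraries were below both controls for Col28a1, Col4a3, Col6a4, Col6a6 and Col25a1. They were above both controls for Col13a1, Col2a1 and Col17a1. The shares of all genes given above cover only genes that reached the minimum, and no share is given for genes under it. Several of these collagens were near 0, with Col6a6, Col25a1 and Col17a1 at most at 0.0306, 0.0128 and 0.0292 FPKM in any HSC library. Of the collagens above both controls, Col13a1 had the highest level. This membrane-spanning collagen was at 0.0865 and 0.169 FPKM in control HSCs and at 0.550 and 0.452 FPKM with auranofin. When all genes were fitted without a minimum, its log2 fold change was 0.41 (SE 0.06, limma adjusted p = 0.115), which did not pass. It was singled out after its values were seen. The others of these 19 had a limma adjusted p of at least 0.348 in that fit.

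The ratio between chains of a type showed no difference that the design could detect. Col1a1 was 1.58 and 1.59 times Col1a2 in control HSCs and 1.62 and 1.59 times with auranofin. The log2 ratio differed by 0.02 between the groups (exact permutation test, two-sided, p = 0.33), and with 2 libraries in each group such a test cannot give a smaller p. The Col4a1 to Col4a2 ratio was 1.5 and 1.26 in controls and 1.54 and 1.27 with auranofin, a difference of 0.02 (exact permutation test, two-sided, p = 0.667). Here too replicate 1 of each group was the higher one. Col6a1 stood to Col6a2 at 1.68 and 1.65 in the controls and at 1.70 in both auranofin libraries.

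The promoter sequences of 4 collagens that lay below the controls in both auranofin libraries are shown, to compare the letters at their starts. For 34 of the 43 collagens, and 20 of the 24 tested, RefSeq promoter windows (GRCm38.p6, the assembly of mm10) were at hand. Each line gives the 130 bases before the transcript start, 5′ to 3′ on the strand of the gene, with capitals for a match to the TATA box letters TATAAA, to the CCAAT box or to the GC box letters GGGCGG, each searched on both strands. The windows are chr6:4505488-4505617 (plus strand) for Col1a2, chr1:45311408-45311537 (plus) for Col3a1, chr2:27886295-27886424 (plus) for Col5a1 and chr16:57754738-57754867 (minus) for Col8a1.
Col1a2: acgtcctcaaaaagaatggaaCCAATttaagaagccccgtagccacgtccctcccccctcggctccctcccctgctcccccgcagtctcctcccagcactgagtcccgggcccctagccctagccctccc
Col3a1: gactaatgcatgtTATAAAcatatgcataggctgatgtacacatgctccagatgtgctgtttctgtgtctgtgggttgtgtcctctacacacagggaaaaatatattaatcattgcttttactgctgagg
Col5a1: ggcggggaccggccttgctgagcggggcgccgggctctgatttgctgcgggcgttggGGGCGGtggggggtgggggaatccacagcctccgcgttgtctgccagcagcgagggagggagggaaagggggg
Col8a1: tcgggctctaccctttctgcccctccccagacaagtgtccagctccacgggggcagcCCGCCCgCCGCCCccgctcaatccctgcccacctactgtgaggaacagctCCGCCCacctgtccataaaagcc
Col1a2 held a CCAAT box, Col3a1 held TATAAA without GC box letters, Col5a1 held GGGCGG and Col8a1 held its reverse complement at 3 places. Further upstream, within 250 bases of the start, Col1a2 also held GGGCGG, so that 3 of the 4 genes had these letters and Col3a1 did not. Some of the genes have several windows, so counts are of windows. In the 250 bases before the start, on either strand and with overlaps allowed, GGGCGG was in 15 of 22 windows of collagens tested in HSCs (68.2%), beside 58.0% of windows of all genes tested in HSCs and 32.7% of all windows. CCAAT was in 9 of 22 (40.9%), beside 35.0% and 33.8%, and TATAAA in 1 of 22 (4.55%), beside 6.27% and 12.4%. A match of letters is a description and not a bound site.

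Col4a1 and Col4a2 lie head to head on chromosome 8 and are read in opposite directions. The starts in the RefSeq promoter windows are 21 bases apart, and the RefSeq gene ranges, which cover other Col4a1 transcripts too, overlap further, with the end of Col4a1 84 bases past the start of Col4a2. The stretch that holds both window starts is shown for that reason, at chr8:11312805-11312826 on the plus strand of GRCm38.p6, with capitals for a GGGCGG match.
Col4a1 and Col4a2 starts: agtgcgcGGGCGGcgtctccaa
Whether strand was used to assign the fragments of this overlap is not given in the sources used here. Col4a1 differed between the control replicates from 378 to 303 FPKM, whereas Col4a2 was at 252 and 241 FPKM.

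Genes that make, process, bind and degrade collagen were described by 4 lists. Of the 20 synthesis genes tested (23 in the list), which encode the prolyl and lysyl hydroxylases, chaperones and export factors of procollagen, 0 passed the limma adjusted p of 0.05, and 4 were lower and 0 higher at an unadjusted p under 0.05, beside 9.22% and 8.57% of all genes. Their median log2 fold change was -0.03. P4ha1, a subunit of the prolyl 4-hydroxylase that makes the helix stable, was at 56.3 and 57.3 FPKM in control HSCs and at 55.6 and 53.8 FPKM with auranofin (-0.05, SE 0.04). Serpinh1, the collagen chaperone HSP47, was at 633 and 401 FPKM against 591 and 597 FPKM (0.24, SE 0.20). Control replicate 2 was the lowest library for Serpinh1, and it was also lowest for Lox, the enzyme that crosslinks collagen, at 95.1 and 49.3 FPKM in the controls and 76.3 and 73.7 FPKM with auranofin (0.13, SE 0.28).

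Of the 16 genes tested for procollagen cleavage, crosslinking and fibril assembly (18 in the list), 1 fell past the adjusted threshold, beside 1.09% of all genes. This was Pcolce, which speeds the removal of the procollagen C-terminal part. It was at 114 and 111 FPKM in control HSCs and at 95.6 and 96.4 FPKM with auranofin (-0.23, SE 0.03, limma adjusted p = 0.0345). Both auranofin libraries were below both controls in 13 of the 16, beside 23.9% of all genes, and the median was -0.09.

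Of 9 collagen receptors tested (12 in the list), 2 fell past the adjusted threshold and 0 rose, beside 1.09% of all genes lower and 2.33% in either direction. Itga1, the α1 integrin subunit that binds type IV collagen, was at 18.8 and 19.1 FPKM in control HSCs and at 14.3 and 14.5 FPKM with auranofin (-0.37, SE 0.04, limma adjusted p = 0.0141). Mrc1, the mannose receptor, which takes up collagen fragments and is also a macrophage and sinusoidal endothelial gene, was at 88.9 and 86.3 FPKM against 69.5 and 74.2 FPKM (-0.28, SE 0.04, limma adjusted p = 0.0395). Ddr2, a kinase receptor for fibrillar collagen, was at 23.8 and 22.7 FPKM against 20.8 and 22.4 FPKM (-0.10, SE 0.05). The median of the receptors was -0.12.

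Collagen breakdown genes had a median of -0.01 over 14 tested (15 in the list), and 0 passed the limma adjusted p of 0.05. At an unadjusted p under 0.05, 5 were lower and 1 was higher, beside 9.22% and 8.57% of all genes. Mmp13, the main interstitial collagenase of the mouse, was at 33.4 and 35.6 FPKM in control HSCs and at 26.7 and 31.0 FPKM with auranofin (-0.25, SE 0.08, limma adjusted p = 0.176). Timp1, an inhibitor of these proteases, was at 254 and 240 FPKM against 279 and 247 FPKM (0.09, SE 0.06).

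**Figure D4:**
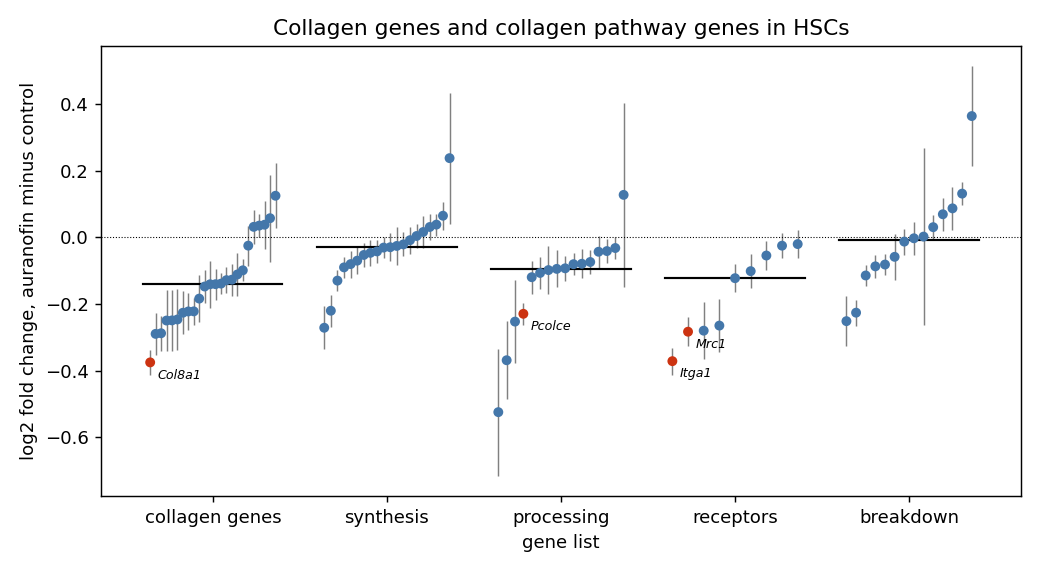
Log2 fold change of auranofin against control in HSCs for the collagen genes and the 4 lists of collagen pathway genes, 1 point per gene tested with its standard error as a bar, and a black line at the median of each list. Red points are the 4 genes with an adjusted p under 0.05, Col8a1, Pcolce, Itga1 and Mrc1, all below 0.

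Markers of the cell types that an HSC culture can hold moved beside the collagens. The summed level of 12 stellate cell markers was 1123 and 1136 FPKM in the controls and 896 and 894 FPKM with auranofin. Most of that sum was Acta2, at 956 and 965 FPKM against 743 and 737 FPKM. It was the 1 of 11 tested that fell past the adjusted threshold (-0.38, SE 0.03, limma adjusted p = 0.0072), beside 1.09% of all genes. At an unadjusted p under 0.05 in limma, 4 of the 11 were lower and 0 higher, beside 9.22% and 8.57% of all genes. Both auranofin libraries were below both controls in 5 and above in 1, beside 23.9% and 26.2%. The median of the 11 was -0.13. The mean of Col1a1 was lower by 8.48% and did not pass.

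The summed level of 12 portal fibroblast and mesothelial markers was 797 and 852 FPKM in controls against 723 and 758 FPKM. In this list, 3 of 10 tested fell past the adjusted threshold, namely Gpm6a, Msln and Upk1b, beside 1.09% of all genes. Among 12 endothelial markers (521 and 507 against 500 and 477 FPKM), 3 fell past the same threshold, namely Clec4g, Fcgr2b and Stab2, beside 1.09% of all genes. Others of this list went the other way, with Cdh5 and Kdr higher at an unadjusted p under 0.05 in limma, beside 8.57% of all genes. Of the 12, 5 were below both controls and 3 above, beside 23.9% and 26.2% of all genes. Of 15 macrophage markers tested (9042 and 9174 against 8861 and 8869 FPKM), 1 rose past this threshold, namely Clec4f, and 0 fell, beside 2.33% of all genes in either direction. At an unadjusted p under 0.05 in limma, C1qb, C1qc and Cd14 were lower, beside 9.22% of all genes. Of the macrophage markers tested, 6 were below both controls and 2 above, beside 23.9% and 26.2% of all genes. Cholangiocyte markers summed to 372 and 477 FPKM against 362 and 422 FPKM. Of the 3 tested, 0 passed the limma adjusted threshold, beside 2.33% of all genes. At an unadjusted p under 0.05 in limma, 2 of them were lower, beside 9.22% of all genes. No marker was listed at 0 in all HSC libraries. The part of these cells in the collagen differences was not tested.

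The second comparison asked how auranofin for 1 h affected collagens in BMDMs under LPS and ATP, and no collagen was called. Of the 4 tested, 0 passed the limma adjusted p of 0.05 (0.0108% of all 9232 genes did), 0 were past 1.5-fold with an unadjusted p under 0.05 (0.152%), and 0 had an unadjusted p under 0.05 (0.531%). Both auranofin libraries were below both controls for 1 of the 4, against 12.6% of all genes, and above both for 0, against 26.3%. The median log2 fold change of the 4 was -0.07, beside 0.09 over all genes.

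Col18a1 was at 6.96 and 7.76 FPKM in control BMDMs and at 6.51 and 7.50 FPKM with auranofin, with overlapping groups (log2 fold change -0.06, SE 0.13, limma adjusted p = 0.830). Col1a1 was at 2.53 and 2.20 FPKM against 1.59 and 2.87 FPKM (-0.09, SE 0.24, limma adjusted p = 0.871). Col1a2 was at 2.42 and 2.18 FPKM against 1.86 and 4.35 FPKM (0.24, SE 0.34, limma adjusted p = 0.761). For both type I chains, the auranofin libraries lay on either side of the controls. Col27a1 was at 2.25 and 2.43 FPKM against 1.18 and 2.14 FPKM, the 1 tested collagen without overlap (-0.35, SE 0.22, limma adjusted p = 0.721).

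The auranofin replicates of BMDMs differed more from each other than from the controls. Of the 20 collagens with a mean of at least 0.1 FPKM, auranofin replicate 1 was the lowest library in 17, against 25.5% of all genes at that level, and auranofin replicate 2 was the highest in 13, against 13.6%. Summed over all collagens, auranofin replicate 1 held 16.4 FPKM and auranofin replicate 2 held 26.7 FPKM, below and above the controls at 21.0 and 21.1 FPKM. Without auranofin replicate 2, where 5997 of all genes passed the adjusted threshold, 2 collagens did so, namely Col1a1 (-0.38, limma adjusted p = 0.0261) and Col27a1 (-0.62, limma adjusted p = 0.00393). In that fit the lone auranofin library is assumed to vary like the controls.

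The genes behind the high sum of auranofin replicate 2 were mainly of types I, III and VI. Col6a1 was at 0.563 and 0.547 FPKM in control BMDMs and at 0.575 and 1.43 FPKM with auranofin, which stands for about 69, 62, 83 and 203 fragments. Col6a2 was at 0.385 and 0.357 FPKM against 0.308 and 1.11 FPKM. Col3a1 was at 0.863 and 0.830 FPKM against 0.668 and 1.22 FPKM. In each of these genes, auranofin replicate 2 alone was high. For Col6a1 both auranofin libraries lay above both controls, by little in auranofin replicate 1.

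Col4a3, a kidney-type basement membrane chain, was at 0.367 and 0.379 FPKM in control BMDMs and at 0.0739 and 0.312 FPKM with auranofin. These values stand for about 94, 90, 22 and 92 fragments, not scaled to depth, which was 34600000 in auranofin replicate 2 against 29900000 and 27700000 in the controls. Both auranofin libraries were below both controls, and auranofin replicate 1 was far lower than auranofin replicate 2. When all genes were fitted without a minimum, its log2 fold change was -0.21 (SE 0.11, limma adjusted p = 0.782). Col9a3, a FACIT chain of cartilage, lay above the controls in both auranofin libraries, at 0.441 and 0.525 FPKM against 0.703 and 0.642 FPKM (log2 fold change 0.17, SE 0.07, limma adjusted p = 0.782 when all genes were fitted without a minimum). Col5a3 lay below them, at 0.435 and 0.452 FPKM against 0.283 and 0.429 FPKM, with the same adjusted p. The Col1a1 to Col1a2 ratio was 1.05 and 1.01 in the controls and 0.857 and 0.660 with auranofin, a log2 difference of -0.45 (exact permutation test, two-sided, p = 0.33, the smallest possible). The remaining 16 collagens of the BMDM table had a mean under 0.1 FPKM. Among them, both auranofin libraries were below both controls for Col23a1, Col19a1 and Col2a1 and above both for Col8a2 and Col22a1. No share of all genes is given for BMDM collagens under the minimum of 1 FPKM.

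**Figure D5:**
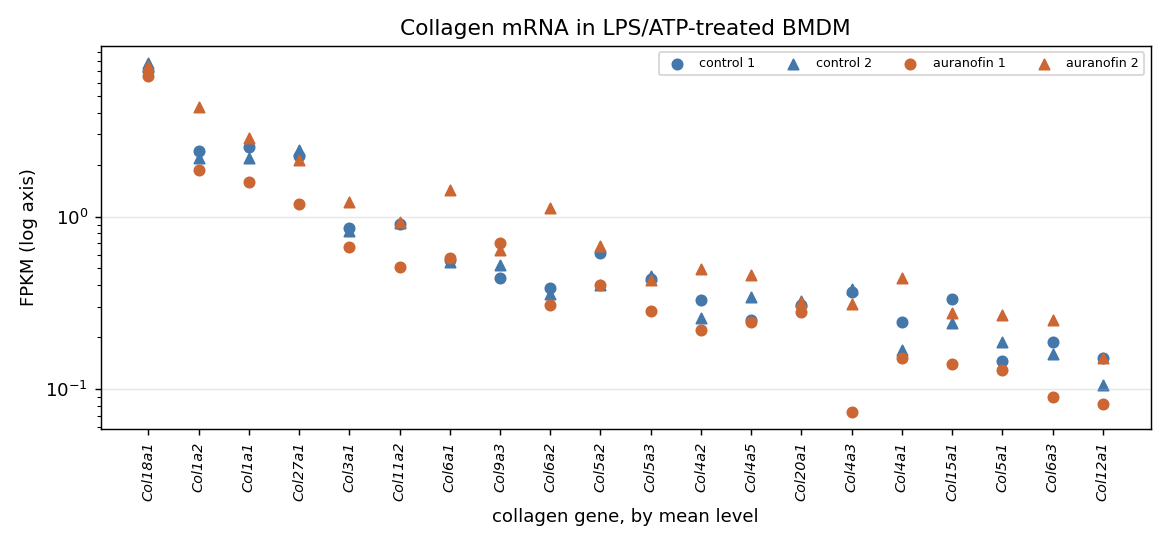
FPKM on a log axis of the 20 collagens with a mean of at least 0.1 FPKM in BMDMs under LPS and ATP, 1 point per library (blue for control, orange for auranofin, circles for replicate 1, triangles for replicate 2). The orange circle is the lowest point in 17 genes and the orange triangle the highest in 13.

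Other cells can carry collagen transcripts into a macrophage culture, and their markers were measured. The 9 portal fibroblast and mesothelial markers listed summed to 1.16 and 0.686 FPKM in control BMDMs and to 0.752 and 1.44 FPKM with auranofin, with Upk1b listed at 0 in all libraries, and Acta2 was between 0.802 and 1.10 FPKM. The sum of the 11 stellate markers listed was 61.2 and 59.9 FPKM against 25.4 and 62.5 FPKM, and most of it was the transcription factor Lhx2. Endothelial markers summed to 164 and 171 FPKM against 98.2 and 153 FPKM, hepatocyte markers to at most 4.04 FPKM, and cholangiocyte markers to between 3763 and 4672 FPKM, the last mainly Spp1, which macrophages also express. Most of the endothelial sum was Fcgr2b (87.1 and 91.7 FPKM in the controls) and Eng (54.6 and 57.5 FPKM). Most of the rest was Kdr, Vwf and Oit3. Every other endothelial marker listed, Cdh5 and Pecam1 among them, was under 1 FPKM in each BMDM library. Auranofin replicate 1 was thus the lowest library for the stellate and endothelial sums and for the collagen sum, and the part of other cells in this was not tested.

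The collagen pathway lists had 0 genes past the limma adjusted p of 0.05 in BMDMs, among 14 synthesis, 4 processing, 3 receptor and 12 breakdown genes tested, and 0 at an unadjusted p under 0.05. Their medians were 0.04, -0.08, -0.01 and 0.09 on the log2 scale. Mmp13 was at 671 and 661 FPKM in control BMDMs and at 278 and 659 FPKM with auranofin (-0.64, limma adjusted p = 0.721), with auranofin replicate 1 alone low. Serpinh1 was between 1.02 and 2.18 FPKM in BMDMs, whereas P4ha1 was between 32.8 and 34.9 FPKM.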

How the data were processed

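Stranded mRNA libraries were sequenced, 4 from HSCs and 4 from BMDMs. FPKM values were deposited by the authors, 1 table per cell type. The submitters' processing notes name CASAVA, FastQC 0.11.7, Trimmomatic 0.38, HISAT2 2.1.0, StringTie 1.3.4d and mm10. Groups and replicate numbers came from the sample labels.

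Each table was fitted alone in limma 3.58.1 (lmFit, eBayes with trend, R 4.3.3) on log2(FPKM + 1), without further scaling, for genes whose mean reached 1 FPKM. The log2(FPKM + 1) scale makes fold changes of low genes too small. Depth was estimated from 1-fragment steps under 0.2 FPKM with GENCODE M21 transcript lengths, and covers counting error only. Fragments were computed for the 29 collagens with 1 transcript length. The test was checked on simulated data with 2-fold changes, and changes as small as those of the collagens in HSCs were not simulated. Python 3.11.15 (pandas 2.3.3, numpy 2.4.6, scipy 1.17.1, matplotlib 3.10.9) made the rest.

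The collagens, 4 pathway lists and 6 marker lists were chosen with earlier results of these data known. Named were collagens of at least 10 FPKM, those called or without overlap, Col1a1, Col1a2, Col3a1, Col4a1 and Col4a2, and pathway genes that were called or, in HSCs, P4ha1, Serpinh1, Lox, Ddr2, Mmp13 and Timp1. Other names were chosen after their values were seen. Alternatives were a pseudocount of 0.1, no minimum, a minimum of 5 FPKM, eBayes without trend, quantile normalization, centring on the median of all genes, a replicate block and each library left out. The counts lower at an unadjusted p or without overlap, and the fit of members under the minimum, were added after seeing the data.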

Additional observations from a re-analysis of the deposited data

How the results depend on the processing

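In HSCs, the 1 collagen with a limma adjusted p under 0.05, beside 283 of all genes, became 0 with no minimum on the level (49 of all genes). It became 3 with a minimum of 5 FPKM (331 of all genes) and 3 with centring on the median (312 of all genes). The 3 pathway genes became 0 with no minimum and 1 with eBayes without trend (129 of all genes). When 1 library was left out, both counts moved, as did the count of all genes. The median log2 fold change of -0.14 became -0.049 with no minimum, which brings in the collagens near 0, and lay between -0.19 and -0.10 with a library left out. With a library left out, the count of 16 collagens lower at an unadjusted p lay between 6 (without auranofin replicate 1) and 16, and that of 16 without overlap between 16 and 19, with fewer libraries to separate. With the replicate number as a block, 2 collagens passed, Col3a1 (limma adjusted p = 0.0299) besides Col8a1, and 18 were lower at an unadjusted p. Whether libraries of the same number were paired is not stated. Over all genes tested, the correlation of their deviations was 0.109 in HSCs and -0.0551 in BMDMs. In HSCs, the block took the SE of Col4a1 from 0.13 to 0.024 and that of Col1a1 from 0.048 to 0.023. Those of Col11a1 (0.053 to 0.055) and Col5a3 (0.072 to 0.078) went the other way. A pairing was not tested. The block moved no other count of collagens or pathway genes past 1.5 times, while in BMDMs the count of all genes past 1.5-fold went from 14 to 42. Without control replicate 1, Col3a1 also passed (limma adjusted p = 0.0344), and without control replicate 2, Col11a1 (0.0307) and Col12a1 (0.0341) did.

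Among the alternatives run, signs of named collagens turned only in fits that left out a library. In HSCs, log2 fold changes in such fits ranged from -0.074 to 0.024 for Col18a1 (above 0 without auranofin replicate 1 or control replicate 2), from -0.10 to 0.22 for Col4a1 (below 0 without these same libraries) and from -0.031 to 0.11 for Col5a3 (below 0 without auranofin replicate 2 or control replicate 2). In BMDMs, they ranged from -0.15 to 0.026 for Col18a1 (above 0 without auranofin replicate 1 or control replicate 2), from -0.38 to 0.20 for Col1a1 (above 0 without auranofin replicate 1) and from -0.21 to 0.70 for Col1a2 (below 0 without auranofin replicate 2). With a BMDM library left out, between 0 and 2 collagens and between 0 and 15 pathway genes had a limma adjusted p under 0.05, between 0 and 1 collagens were past 1.5-fold, and the median lay between -0.29 and 0.12. The log2 ratio of Col1a1 to Col1a2 differed by between 0.009 and 0.03 in HSCs and between -0.64 and -0.26 in BMDMs, and that of Col4a1 to Col4a2 by between -0.12 and 0.16 and between -0.03 and 0.34. The causes were not tested. Under 0.1 FPKM in BMDMs, a collagen rests on few fragments.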

Other observations

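Expressed in fragments, auranofin replicate 2 of HSCs, the deepest library, held more Col1a1 fragments than the controls although its FPKM was lower. Col1a1 had about 186336 and 210916 fragments in the control HSCs, 164861 in auranofin replicate 1 and 229531 in auranofin replicate 2. Scaled to the library, its level there was 973 FPKM, below both controls.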
